A study of Mus musculus with 7 samples.

Results

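The genes described here encode glycoproteins and granule proteins of megakaryocytes and platelets: the integrin chains Itga2b and Itgb3, the 4 chains of the von Willebrand factor receptor (Gp1ba, Gp1bb, Gp5 and Gp9), the cargo proteins Pf4 and Vwf, and the intracellular proteins Plek and Rab27b. They were chosen by symbol. All 10 had a single row in a table of 20464 rows. Their RNA was measured by sequencing in 3 CD34-positive and 4 CD34-negative libraries of EML cells, a mouse erythroid, myeloid and lymphoid progenitor line. EML cells were made by giving mouse bone marrow cells a dominant-negative retinoic acid receptor, so both groups carry it. The cells were sorted live, without Annexin V staining, and the groups differ by surface CD34. The labels also give strain C57BL/6, bone marrow and postnatal day 14.7, although the source is the line.

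Megakaryocytes are the marrow cells that shed platelets. Their surface carries the fibrinogen receptor, integrin alpha IIb beta 3, and the GPIb-IX-V complex, which binds von Willebrand factor at sites of injury. Alpha granules hold Pf4 and von Willebrand factor until a platelet is activated. Part of this set is not limited to platelets: alpha IIb (CD41) also marks early blood progenitors, and Plek and Rab27b are used by other granule-bearing blood cells, mast cells included.

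Libraries are called by the number in their descriptions: 2, 3 and 4 in CD34-positive cells, and 2, 3, 4 and 4a in CD34-negative cells. The description of CD34-positive library 3 reads 3a, and its letter is left out here. Levels are in FPKM, by definition fragments divided by transcript length and by the mapped total of the library. Levels of different genes can thus be set side by side within a library. How these libraries were scaled is not given. Summed FPKM ran from 260352 in CD34-positive library 4 to 733955 in CD34-negative library 2. Sequencing depth is not known, and each library had 8606 to 9117 genes at 1 FPKM or more. Ribosomal protein genes held 27.7% to 37.1% of summed FPKM in the libraries numbered 2 and 3 of both groups and 2.24% to 4.13% in those numbered 4 and 4a. Cd34 itself stood at 256, 147 and 153 FPKM in CD34-positive libraries 2, 3 and 4, against 19.3, 91.8, 2.67 and 6.02 FPKM in CD34-negative libraries 2, 3, 4 and 4a. No value of one group fell within the other, and CD34-negative library 3 held far more Cd34 than the other CD34-negative libraries. Kit, the stem cell factor receptor that such progenitors carry, was present in every library (44.7 to 522 FPKM).

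RefSeq promoter entries (GRCm38.p6) were used for 7 of the 10 genes: Itga2b, Gp1ba, Gp1bb, Gp5, Gp9, Pf4 and Plek. No entry was used for Itgb3, Vwf or Rab27b. The selection for the set left out a chromosome that the share over all promoters kept. An unused gene may therefore still have an entry. Each entry covers 250 bases before and 50 bases after a start site. GATA and ETS factors are the textbook regulators of these genes, so both strands were searched for their motifs. The GATA motif was AGATAA, the same letters ending in G, or either of these with T as first letter. The ETS motif was AGGAAG, or the same letters with C first. No GATA match overlapped an ETS match in these 7 promoters. A GATA match was present in 4 of the 7 promoters and in 29.8% of all 32851 promoters of this length. An ETS match was present in 6 of the 7 and in 46.5% of all. The 3 promoters below are shown because Gp5 and Gp1ba were the tested genes of the set whose groups did not overlap, while Itga2b was abundant in both groups. Capitals mark GATA matches on either strand.
Gp5, chr16:30310732-30311031, minus strand: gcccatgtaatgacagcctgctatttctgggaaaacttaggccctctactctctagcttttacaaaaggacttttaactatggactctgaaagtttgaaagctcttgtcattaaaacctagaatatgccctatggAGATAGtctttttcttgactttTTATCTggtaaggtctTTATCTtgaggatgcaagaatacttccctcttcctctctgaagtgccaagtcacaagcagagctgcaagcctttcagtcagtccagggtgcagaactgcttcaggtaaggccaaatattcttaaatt
Gp1ba, chr11:70638872-70639171, plus strand: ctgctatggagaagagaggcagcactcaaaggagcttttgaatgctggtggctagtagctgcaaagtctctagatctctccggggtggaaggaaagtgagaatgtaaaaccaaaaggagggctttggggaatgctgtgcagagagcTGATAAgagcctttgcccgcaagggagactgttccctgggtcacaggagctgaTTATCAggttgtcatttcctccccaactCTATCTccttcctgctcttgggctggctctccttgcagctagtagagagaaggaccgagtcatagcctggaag
Itga2b, chr11:102469834-102470133, minus strand: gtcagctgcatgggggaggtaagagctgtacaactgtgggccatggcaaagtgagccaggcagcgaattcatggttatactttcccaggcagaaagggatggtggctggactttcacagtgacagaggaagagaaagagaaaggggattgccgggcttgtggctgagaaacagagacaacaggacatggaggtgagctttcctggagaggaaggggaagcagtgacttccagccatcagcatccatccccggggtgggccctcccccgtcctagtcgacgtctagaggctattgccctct
Counted from the start, the 3 matches in Gp5 began at -115, -93 and -77, and the 3 in Gp1ba at -104, -51 and -23. Itga2b held no GATA match in this window and 2 ETS matches. Gp1bb and Pf4 held 1 GATA match each. A match is a run of letters and not a measured binding site.

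The test covered 9259 genes, those that reached 1 FPKM in 3 or more libraries, and 8 of the 10 genes passed this filter. Gp1bb and Vwf did not. Gp5 reached 1 FPKM in all 4 CD34-negative libraries and in 1 CD34-positive library, so it passed through the CD34-negative group alone. Differences are CD34-positive minus CD34-negative on the log2(FPKM + 1) scale, from limma with adjustment over all tested genes. In that fit 0% of tested genes passed an adjusted p of 0.05, and none of the 8 did. Before adjustment, 1 of the 8 had p under 0.05 (Gp5, lower), against 5.65% of all tested genes in either direction and 2.27% in the lower one. With the library number as a block, 3 of the 8 did (Itgb3 higher, Gp5 and Pf4 lower), against 22.0% of all (12.8% higher and 9.14% lower), and the smallest adjusted p of any gene was 0.0767. Because the filter let Gp5 in only where it is high, its calls here are a description, and nothing is read from these counts. The median difference of the 8 was -0.076, against 0.086 over all tested genes, with 4 higher and 4 lower.

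**Figure D1:**
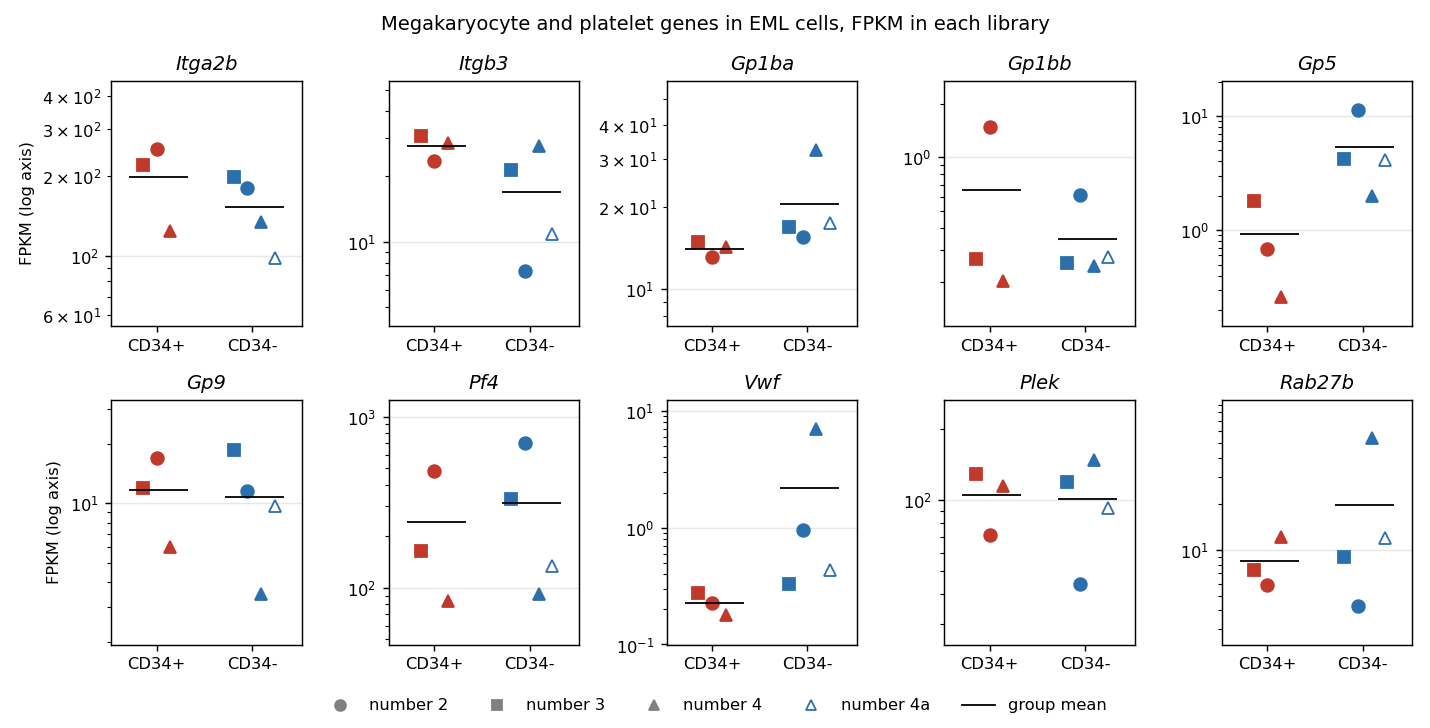
FPKM of the 10 genes in each library on log axes, with CD34-positive libraries in red on the left and CD34-negative libraries in blue on the right of each panel. Marker shapes give the library number and black lines the group means (n = 3 and n = 4). Gp5, Gp1ba and Vwf show no overlap between groups, with the CD34-positive values below, and the other 7 genes overlap. Of all tested genes 3.01% show no overlap in this direction. Vwf is below the filter and Gp5 passed it through the CD34-negative group alone, so nothing is read from this count.

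Both chains of the fibrinogen receptor were expressed in both groups, and neither differed beyond the spread between libraries. Itga2b, the alpha IIb chain found only in this integrin, stood at 253, 219 and 124 FPKM in CD34-positive libraries 2, 3 and 4, against 179, 198, 134 and 97.9 FPKM in CD34-negative libraries 2, 3, 4 and 4a. The groups overlapped, and the lowest values came from the libraries numbered 4 and 4a in both. Its mean was 199 ± 67.0 FPKM over the CD34-positive libraries (SD, n = 3) and 152 ± 45.1 FPKM over the CD34-negative ones (SD, n = 4). The log2 difference was 0.37 (SE 0.48, 95% interval -0.72 to 1.46; limma adjusted p = 0.9999). Without CD34-positive library 2 or CD34-negative library 4a it was 0.17 and 0.18, and without CD34-positive library 4 it was 0.68. Among all tested genes Itga2b ranked at the 94.2nd to 97.4th percentile of level in every library.

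Itgb3, the beta 3 chain that Itga2b needs to reach the surface, was less abundant. It stood at 23.6, 30.5 and 28.5 FPKM in CD34-positive libraries 2, 3 and 4, against 7.36, 21.5, 27.7 and 10.8 FPKM in CD34-negative libraries 2, 3, 4 and 4a. The CD34-positive values lay close together, and CD34-negative library 4 reached into their range. The log2 difference was 0.84 (SE 0.45, interval -0.19 to 1.86; limma adjusted p = 0.9999), and 0.53 without CD34-negative library 2. With the block it was 0.88 (SE 0.34, interval 0.060 to 1.71; limma adjusted p = 0.203). It had a higher value in the CD34-positive library within each number, by 1.56, 0.49, 0.039 and 1.32 within 2, 3, 4 and 4a. The ratio of Itga2b to Itgb3 FPKM was 10.7, 7.21 and 4.35 in CD34-positive libraries 2, 3 and 4, against 24.4, 9.21, 4.83 and 9.03 in CD34-negative libraries 2, 3, 4 and 4a. Alpha IIb RNA thus exceeded beta 3 RNA in every library. Itgav, the other alpha chain that pairs with beta 3, stood at 0.721 to 4.99 FPKM.

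The 4 chains of the GPIb-IX-V complex stood at very different levels, and none passed in limma. Gp1ba, the chain that binds von Willebrand factor, stood at 13.2, 14.8 and 14.3 FPKM in CD34-positive libraries 2, 3 and 4, against 15.5, 17.0, 32.4 and 17.5 FPKM in CD34-negative libraries 2, 3, 4 and 4a. All CD34-positive values lay below all CD34-negative ones, the nearest being 14.8 and 15.5 FPKM. The log2 difference was -0.45 (SE 0.32, interval -1.19 to 0.28; limma adjusted p = 0.9999; exact permutation p = 0.0857, two-sided, where 0.0286 is the smallest that 35 splits allow). CD34-negative library 4 stood apart, and without it the difference was -0.22.

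Gp5, the chain that thrombin cleaves, had the largest difference among the 8 tested genes of the set, in the lower direction. It stood at 0.679, 1.81 and 0.260 FPKM in CD34-positive libraries 2, 3 and 4, against 11.3, 4.18, 1.99 and 4.13 FPKM in CD34-negative libraries 2, 3, 4 and 4a. No overlap was seen between the groups, but the nearest values, 1.81 and 1.99 FPKM, lay close together. The means were 0.917 ± 0.803 FPKM over the CD34-positive libraries (SD, n = 3) and 5.39 ± 4.04 FPKM over the CD34-negative ones (SD, n = 4), 5.88 times as much in the CD34-negative group. This ratio of means was 11.5 without CD34-positive library 3 and 3.74 without CD34-negative library 2. The log2 difference was -1.62 (SE 0.49, interval -2.75 to -0.50; p = 0.0099 before adjustment, limma adjusted p = 0.647; exact permutation p = 0.0571). With the block it was -1.78 (SE 0.37, limma adjusted p = 0.0931). Leaving out CD34-positive library 3 or CD34-negative library 3, it was -2.16 with the block and passed in limma (adjusted p = 0.0437 and 0.0439). Either way the remaining library 3 is alone in its block, so both settings make the same comparison and do not back each other. In those settings 230 and 231 of 9259 genes passed as higher, and 81 as lower in each. Without CD34-positive or CD34-negative library 2, again the same comparison, the difference was -1.31 with the block (limma adjusted p = 0.502 and 0.499). Without CD34-positive library 4 it was -1.88 (limma adjusted p = 0.531). Gp5 passed the filter through the CD34-negative group alone, so these calls are a description. Within numbers 2, 3, 4 and 4a the differences were -2.87, -0.88, -1.25 and -2.03.

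Gp9, which the complex needs for assembly, stood at 17.0, 11.997 and 6.05 FPKM in CD34-positive libraries 2, 3 and 4, against 11.5, 18.5, 3.50 and 9.74 FPKM in CD34-negative libraries 2, 3, 4 and 4a. The groups overlapped throughout, and the sign of the difference changed from number to number (0.53, -0.59, 0.65 and -0.61). Its log2 difference was 0.18 (SE 0.53, interval -1.03 to 1.39; limma adjusted p = 0.9999) and -0.0089 with the block.

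Gp1bb, the beta chain linked to Gp1ba, was below the filter. It stood at 1.49, 0.268 and 0.203 FPKM in CD34-positive libraries 2, 3 and 4, against 0.614, 0.255, 0.246 and 0.276 FPKM in CD34-negative libraries 2, 3, 4 and 4a. Both libraries numbered 2 held the highest value of their group. In the RefSeq annotation Gp1bb overlaps Septin5, so its counts are uncertain. In the fit without a filter the log2 difference was 0.22 (SE 0.28) and did not pass in limma. Gp9 FPKM were 11.4 to 44.8 times those of Gp1bb in CD34-positive libraries, against 14.2 to 72.7 times in CD34-negative libraries.

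Within a library, ratios between chains do not depend on the scaling of that library. Gp9 FPKM were 25.0, 6.62 and 23.3 times those of Gp5 in CD34-positive libraries 2, 3 and 4, against 1.02, 4.42, 1.76 and 2.36 times in CD34-negative libraries 2, 3, 4 and 4a. The groups did not overlap for this ratio, which was picked after the values were seen and not tested. Gp5 stood under 1 FPKM in CD34-positive libraries 2 and 4 (0.679 and 0.260 FPKM), so the ratios there are uncertain. For Gp1ba over Gp5 the groups overlapped, at 8.19 to 54.9 in CD34-positive and 1.38 to 16.3 in CD34-negative libraries. For Gp1ba over Gp9 they overlapped too, at 0.775 to 2.36 in CD34-positive and 0.916 to 9.25 in CD34-negative libraries.

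**Figure D2:**
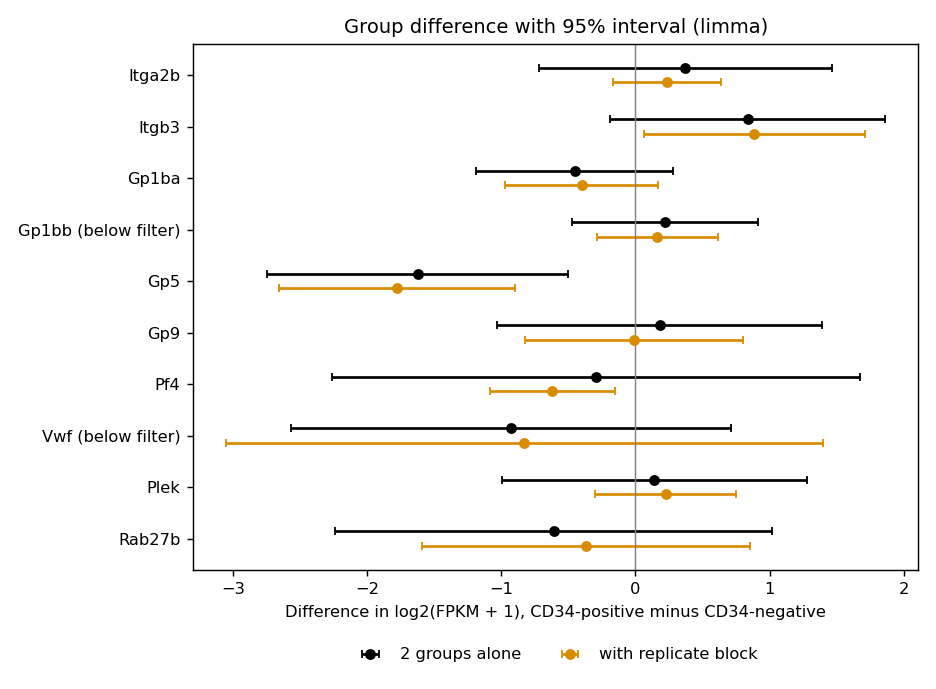
Group difference of each gene in log2(FPKM + 1), CD34-positive minus CD34-negative, with 95% intervals from limma, for the 2 groups alone (black) and with the library number as a block (orange). Among the 10 genes, the interval of Gp5 lies below 0 in both fits, those of Itgb3 and Pf4 leave 0 with the block, and no adjusted p is under 0.05. Of all tested genes, 5.65% had an unadjusted limma p under 0.05 for the 2 groups alone and 22.0% with the block. Gp5 passed the filter through the CD34-negative group alone, so nothing is read from this count.

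Pf4, a chemokine stored in alpha granules, was among the most abundant RNAs of the set, and it varied more between library numbers than between the CD34 groups. It stood at 478, 165 and 83.9 FPKM in CD34-positive libraries 2, 3 and 4, against 699, 329, 91.6 and 134 FPKM in CD34-negative libraries 2, 3, 4 and 4a. The groups overlapped, but within each number the CD34-positive library held less, by -0.55, -0.99, -0.13 and -0.67 on the log2 scale within 2, 3, 4 and 4a. The difference was -0.29 (SE 0.86, interval -2.26 to 1.67; limma adjusted p = 0.9999) for the 2 groups alone and -0.62 (SE 0.20, interval -1.09 to -0.15; limma adjusted p = 0.142) with the block. Without CD34-positive library 4 or CD34-negative library 2 the fit of the 2 groups alone gave 0.28 and 0.24, so its direction rested on those libraries.

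Vwf, which encodes von Willebrand factor, was below the filter. It stood at 0.227, 0.274 and 0.180 FPKM in CD34-positive libraries 2, 3 and 4, against 0.960, 0.330, 6.95 and 0.430 FPKM in CD34-negative libraries 2, 3, 4 and 4a. Only CD34-negative library 4 exceeded 1 FPKM. The nearest values of the groups, which did not overlap, were 0.274 and 0.330 FPKM. In the fit without a filter the log2 difference was -0.93 (SE 0.66), which did not pass in limma, and -0.34 without CD34-negative library 4. Endothelial cells also make Vwf. Of 10 endothelial markers, 7 stayed below 1 FPKM in every library, with Kdr, Tek, Emcn and Cldn5 listed at 0 throughout, and their summed level in CD34-negative library 4 was 65.6 FPKM, within the range of its group (59.5 to 107 FPKM). Pecam1, which blood cells also express, made up 55.9 FPKM of that sum, and Egfl7 9.61 FPKM. Over the libraries Egfl7 stood at 8.26 to 45.7 FPKM and Tie1 at 0.0346 to 3.69 FPKM. An entry of 0 can also be a failed estimate. Summed mast cell markers were highest in CD34-negative library 4 (19041 FPKM). The part of endothelial or mast cells in the Vwf value was not tested.

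Plek, pleckstrin, a substrate of protein kinase C in platelets and leukocytes, was abundant in both groups. It stood at 71.4, 129 and 114 FPKM in CD34-positive libraries 2, 3 and 4, against 44.3, 119, 147 and 92.4 FPKM in CD34-negative libraries 2, 3, 4 and 4a. Both libraries numbered 2 held the least, and the groups overlapped. The log2 difference was 0.14 (SE 0.50, interval -0.996 to 1.28; limma adjusted p = 0.9999).

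Rab27b, a small GTPase for secretory granules, stood at 5.85, 7.35 and 12.2 FPKM in CD34-positive libraries 2, 3 and 4, against 4.30, 8.92, 54.0 and 11.96 FPKM in CD34-negative libraries 2, 3, 4 and 4a. CD34-negative library 4 held several times more than any other library, and the groups otherwise overlapped. The log2 difference was -0.61 (SE 0.71, interval -2.24 to 1.02; limma adjusted p = 0.9999), and 0.051 without that library. The same library had the highest summed mast cell markers, 19041 FPKM, against 4362 to 5040 FPKM in the other CD34-negative libraries. The part of these markers in the Rab27b value was not tested. In the RefSeq annotation Rab27b overlaps the long non-coding RNA Gm41770, and use of strand is not given, so its counts are uncertain too. Its relative Rab27a stood at 26.8 to 34.5 FPKM in CD34-positive and 18.7 to 42.3 FPKM in CD34-negative libraries, and only in CD34-negative library 4 did Rab27b exceed it, at 1.28 times.

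**Figure D3:**
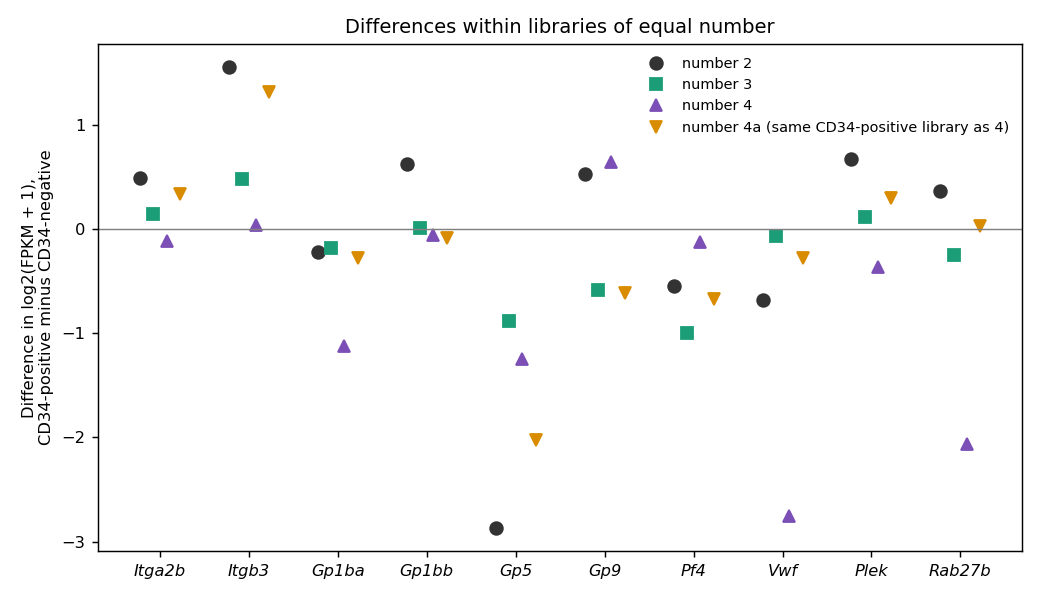
Differences in log2(FPKM + 1), CD34-positive minus CD34-negative, within libraries of equal number, where 4 and 4a share 1 CD34-positive library. Gp1ba, Gp5, Pf4 and Vwf lie below 0 at all 4 numbers, Itgb3 lies above 0 at all 4, and the other 5 genes change sign.

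Among the 8 tested genes, 4 kept 1 sign within 2, 3, 4 and 4a (Itgb3 higher, and Gp1ba, Gp5 and Pf4 lower), against 40.3% of all tested genes (21.4% higher and 18.9% lower). The groups did not overlap for 2 of the 8, Gp1ba and Gp5, both lower, against 5.68% of all tested genes in either direction and 3.01% in the lower one. Gp5 had passed the filter through the CD34-negative group alone, so nothing is read from this count. All libraries numbered 4 and 4a lay below all others for 3 of the 8 (Itga2b, Gp9 and Pf4), against 35.4% of tested genes, and above them for Rab27b, against 10.6%.

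By the order of their mean over the 7 libraries, the levels ran Pf4 (283 FPKM), Itga2b (172), Plek (102), Itgb3 (21.4), Gp1ba (17.8), Rab27b (14.9), Gp9 (11.2), Gp5 (3.47), Vwf (1.34) and Gp1bb (0.478). This order did not hold in every library. Pf4 and Itga2b exchanged places: the ratio of Pf4 to Itga2b was 0.679 to 1.89 in CD34-positive and 0.686 to 3.901 in CD34-negative libraries. Plek exceeded Pf4 in library 4 of both groups, where the ratio of Pf4 to Plek was 0.734 in CD34-positive and 0.622 in CD34-negative cells. In CD34-negative library 4 Plek (147 FPKM) also exceeded Itga2b (134 FPKM). Vwf owed its place above Gp1bb to the 6.95 FPKM of CD34-negative library 4, and in CD34-positive cells the means were 0.227 FPKM for Vwf and 0.652 FPKM for Gp1bb. Itgb3, Gp1ba, Rab27b and Gp9 overlapped one another in level. Over the 7 libraries the spread was widest for Gp5, whose highest value was 43.3 times its lowest, and for Vwf, at 38.7 times. Their lowest values, 0.260 FPKM for Gp5 and 0.180 FPKM for Vwf, lay under 1 FPKM, so these ratios are uncertain. The spread was narrowest for Gp1ba and Itga2b, at 2.46 and 2.58 times.

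**Figure D4:**
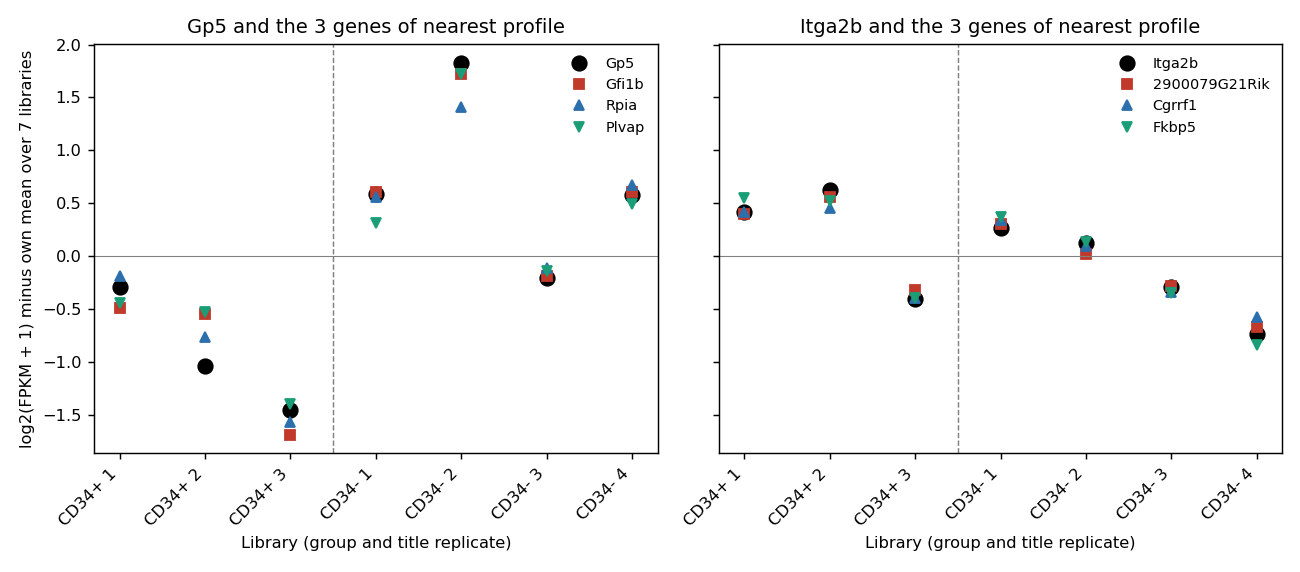
log2(FPKM + 1) of Gp5 (left) and Itga2b (right) and of the 3 tested genes nearest to each in profile, minus each gene's own mean over the 7 libraries, with CD34-positive libraries left of the dashed line and libraries given by their title replicate. Gp5, Gfi1b, Rpia and Plvap stand highest in CD34-negative replicate 2 (11.3 FPKM for Gp5), and Itga2b and its neighbours are lowest in CD34-negative replicate 4 (97.9 FPKM for Itga2b).

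The tested genes most like Gp5 over the 7 libraries, by the mean absolute distance between log2 profiles centred on their own means, were Gfi1b, a repressor required for red cell and platelet formation (distance 0.16), Rpia, an enzyme of the pentose phosphate pathway (0.16), and Plvap, an endothelial membrane protein (0.18). Gfi1b stood at 57.3, 59.6 and 25.4 FPKM in CD34-positive libraries 2, 3 and 4, against 280, 129, 73.8 and 129 FPKM in CD34-negative libraries 2, 3, 4 and 4a. The groups did not overlap, and as for Gp5 the highest value came from CD34-negative library 2 and the lowest from CD34-positive library 4. The genes most like Itga2b were 2900079G21Rik (distance 0.054), Cgrrf1 (0.069) and Fkbp5 (0.071). Genes share depth and scaling within a library, so nearness is a description.

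Beyond the 10 genes, 6 lists of other megakaryocyte and platelet genes held 78 symbols, of which 54 were tested and none passed in limma over all genes. Before adjustment 5 had p under 0.05 as higher and 6 as lower (20.4% of the 54, against 5.65% of all tested genes), and with the block 15 and 10 (46.3%, against 22.0%). Of the 54, P2ry1, Meis1 and Ets1 reached 1 FPKM in at most 1 library of one group. Without these 3, 4 genes were higher and 5 lower before adjustment (17.6% of 51), and 14 and 9 with the block (45.1%). These lists were chosen with results of these libraries known, so nothing is read from the counts. Each list below is to be set against the same shares over all tested genes. These were 5.65% before adjustment, and 12.8% higher and 9.14% lower with the block. The median difference of the 54 was 0.11. Many genes that mark late megakaryocytes and platelets were below the filter. Gp6, the collagen receptor, Clec1b, the podoplanin receptor, and the alpha granule proteins Thbs1, F5 and Mmrn1 were listed at 0 in every library. Tubb1, the platelet tubulin, and Treml1, an alpha granule receptor, reached 0.239 and 0.917 FPKM at most, and P2ry12, the ADP receptor, 0.0894 FPKM. An entry of 0 can also be a failed estimate in a table of this kind.

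Of 14 adhesion receptors and tetraspanins 7 were tested, 5 with higher and 2 with lower values and none under an unadjusted p of 0.05. With the block Itga6, Cd151 and Pear1 did as higher, against 12.8% of all tested genes. Cd63 followed the library number, at 1550, 1135 and 19.8 FPKM in CD34-positive libraries 2, 3 and 4, against 1162, 1278, 36.5 and 15.7 FPKM in CD34-negative libraries 2, 3, 4 and 4a. Cd9 had a mean of 66.9 ± 16.8 FPKM over the CD34-positive libraries (SD, n = 3) and 71.1 ± 13.6 FPKM over the CD34-negative ones (SD, n = 4). Itgb1 averaged 47.7 and 57.5 FPKM, and Cd151 38.0 and 25.3 FPKM, in CD34-positive and CD34-negative cells.

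Of 10 agonist receptors 7 were tested, 4 with higher and 3 with lower values. P2ry1, an ADP receptor, averaged 0.757 and 1.81 FPKM in CD34-positive and CD34-negative cells. It stayed below 1 FPKM in every CD34-positive library and passed the filter through the CD34-negative group alone, so its difference is a description. No other gene of this list had an unadjusted p under 0.05 in limma. With the block 3 did as higher, F2rl3 and F2rl2 among them, and P2rx1 did as lower. F2r, a thrombin receptor of many cell types, had a mean of 285 ± 143 FPKM over the CD34-positive libraries (SD, n = 3) and 239 ± 155 FPKM over the CD34-negative ones (SD, n = 4). F2rl3, the thrombin receptor that signals in mouse platelets, averaged 41.9 and 16.8 FPKM in CD34-positive and CD34-negative cells (log2 difference 1.56, SE 0.92; limma adjusted p = 0.9999, or 0.104 with the block). P2rx1, the ATP-gated channel, averaged 31.7 and 59.6 FPKM in CD34-positive and CD34-negative cells.

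Of 16 genes of granule cargo and release 11 were tested, 7 with higher and 4 with lower values. At an unadjusted p under 0.05, F13a1 was the higher gene and Stx11 the lower one, in limma and with the block. F13a1, a clotting factor subunit, stood at 10.3, 10.8 and 16.0 FPKM in CD34-positive libraries 2, 3 and 4, against 0.937, 6.32, 5.21 and 4.03 FPKM in CD34-negative libraries 2, 3, 4 and 4a (log2 difference 1.52, SE 0.47; limma adjusted p = 0.647, or 0.0931 with the block). No overlap was seen between the groups. Stx11, a syntaxin for granule release, averaged 5.68 and 11.1 FPKM in CD34-positive and CD34-negative cells (log2 difference -0.82, limma adjusted p = 0.731). The granule proteoglycan Srgn (800 and 771 FPKM), Tgfb1 (363 and 259 FPKM) and Stxbp2 (73.7 and 70.2 FPKM) were abundant in CD34-positive and CD34-negative cells.

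Of 12 genes for integrin activation and the cytoskeleton 8 were tested, 7 with higher values and 1 with lower. At an unadjusted p under 0.05, Actn1 was higher in limma, and with the block Actn1, Flna and Myh9 were higher and Fermt3 lower. The lower gene was Fermt3, kindlin-3, which activates beta 3 integrin. It had a mean of 112 ± 48.9 FPKM over the CD34-positive libraries (SD, n = 3) and 168 ± 63.6 FPKM over the CD34-negative ones (SD, n = 4) (limma adjusted p = 0.9999, or 0.0931 with the block). Talin (Tln1) averaged 117 and 96.1 FPKM, the myosin chain Myh9 221 and 142 FPKM, the actin linker Actn1 35.9 and 17.3 FPKM, and filamin (Flna) 90.6 and 57.2 FPKM in CD34-positive and CD34-negative cells. Of 12 genes of receptor signalling and lipid enzymes 8 were tested, 4 with higher and 4 with lower values. Plcg2 was higher and Gnaz lower at an unadjusted p under 0.05 in limma, and with the block Ptgs1 was lower as well. Gnaz, a G protein chain that couples to adrenergic receptors in platelets, averaged 9.84 and 40.0 FPKM, and the phospholipase Plcg2 82.0 and 43.6 FPKM, in CD34-positive and CD34-negative cells (limma adjusted p = 0.647 and 0.799). The receptor chain Fcer1g averaged 672 and 536 FPKM and the adaptor Fyb 48.3 and 58.9 FPKM.

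Of 14 transcription factors of megakaryocytes 13 were tested, 6 with higher and 7 with lower values. Meis1 averaged 5.06 and 1.33 FPKM in CD34-positive and CD34-negative cells and passed the filter through the CD34-positive group, so its difference is a description. Before adjustment Lyl1 had p under 0.05 as higher and Gata1, Gata2 and Gfi1b as lower. With the block Fli1 and Etv6 were added as higher and Mafg as lower. Gata1 stood at 16.3, 24.0 and 4.61 FPKM in CD34-positive libraries 2, 3 and 4, against 167, 67.1, 55.8 and 70.9 FPKM in CD34-negative libraries 2, 3, 4 and 4a. The groups did not overlap, and the CD34-negative group was higher, as for Gp5. The log2 differences of Gata1 and Gata2 were -2.62 (SE 0.59) and -1.805 (SE 0.46), with limma adjusted p of 0.532 and 0.606. Tal1 averaged 132 ± 10.98 and 139 ± 16.2 FPKM in CD34-positive and CD34-negative cells.

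Markers of other lineages also differed between the libraries, and bulk values cannot tell fewer cells of a type apart from less RNA per cell. The summed level of 9 erythroid markers, leaving out the globin Hbb-b1, was 9.93, 32.5 and 3.34 FPKM in CD34-positive libraries 2, 3 and 4, against 562, 186, 55.3 and 515 FPKM in CD34-negative libraries 2, 3, 4 and 4a. With Hbb-b1 it was 33.9 to 633 FPKM and 92.7 to 1967 FPKM, and the groups overlapped. The erythroid sum without Hbb-b1 was highest in CD34-negative library 2 and lowest in CD34-positive library 4, as for Gp5. With Hbb-b1 the highest was again CD34-negative library 2, but the lowest was CD34-positive library 3, unlike Gp5. Summed mast cell markers (10 genes) were 2790 to 3592 FPKM in CD34-positive and 4362 to 19041 FPKM in CD34-negative libraries. Without Cpa3, the mast cell carboxypeptidase, which averaged 2400 and 1466 FPKM in CD34-positive and CD34-negative cells, they were 548 to 854 FPKM in CD34-positive and 2707 to 15907 FPKM in CD34-negative libraries. Summed neutrophil and monocyte markers (9 genes) were 1250 to 2372 and 127 to 1332 FPKM. The part of these markers in the values of Gp5, Gp1ba and Pf4 was not tested.

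**Figure D5:**
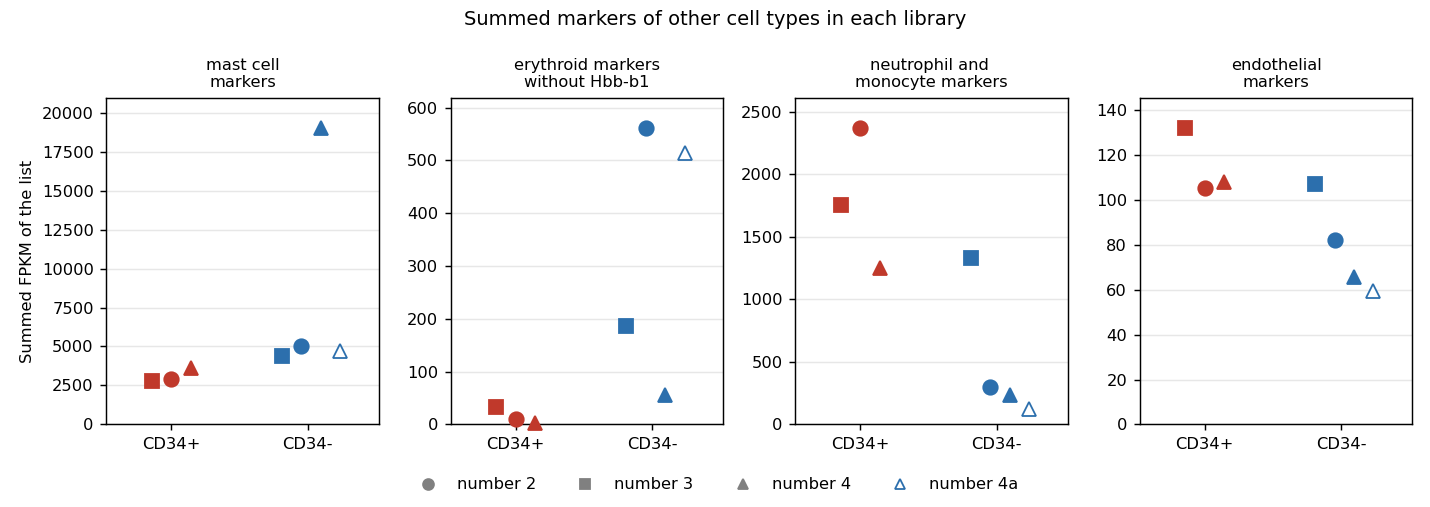
Summed FPKM of marker lists for 4 other cell types in each library, CD34-positive in red on the left and CD34-negative in blue on the right, with shapes for the library number. Mast cell markers are highest in CD34-negative library 4 (19041 FPKM), and erythroid markers without Hbb-b1 reach at most 32.5 FPKM in the CD34-positive libraries and at least 55.3 FPKM in the CD34-negative ones. With Hbb-b1, not plotted, the groups overlap, at 33.9 to 633 FPKM in CD34-positive and 92.7 to 1967 FPKM in CD34-negative libraries.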

How the data were processed

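RNA sequencing values of 7 libraries were used. The deposited values are FPKM, which the authors made per library; per the submitters' processing notes the tools were TopHat2, TopHat and Cuffdiff and the builds mm10 and mm9, without versions or roles. Annotation and use of strand: not given in the sources used here. Symbols on more than 1 row numbered 105, and their 322 rows were left out; none of the 10 genes was among them. Depth is unknown, so no count model or counting interval was used.

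Genes that reached 1 FPKM in 3 or more libraries were compared on log2(FPKM + 1) with limma (version 3.58.1, R 4.3.3) and its mean-variance trend, two-sided, with Benjamini-Hochberg adjustment and a threshold of 0.05. Gp1bb and Vwf were taken from the same fit without the filter. Single genes were also compared with an exact permutation test that enumerated all 35 assignments of the libraries. Nothing says that replicates were separate cultures, so the spread behind each p-value may be technical. Groups came from the titles; a genotype label of the CD34-negative libraries reads CD43.

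The description numbers were checked for pairing by the correlation of deviations from group means, which was 0.92 for number 2, 0.70 for 3, 0.82 for 4 and 0.85 for 4a, and at most 0.37 for unlike numbers. The numbers were treated as pairs in an alternative fit with a block by number. For 4 and 4a pairing cannot be told apart from the low ribosomal protein share of those libraries. Members and lists were chosen with earlier results of these data known. The rule for named genes took all 10 genes, the 3 of highest mean and 2 of largest difference per list, and the 3 genes nearest to Gp5 and Itga2b in profile; further list genes were named after their values were seen. The values of 1 gene of the agonist receptor list are not reported here. Other settings tried were other pseudocounts, filters, scalings and libraries left out. The fits were tested on simulated data.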

Additional observations from a re-analysis of the deposited data

Results flagged for a closer look

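In the CD34-negative group, 1 library stood far apart for Gp1ba in log2 values. It stood at 32.4 FPKM in library 4 and at 15.5 to 17.5 FPKM in the others, a gap of 0.839 of the group's range, past the 95% critical value of Dixon's test for 4 samples. Gp1bb stood at 0.614 FPKM in CD34-negative library 2 and at 0.246 to 0.276 FPKM in the others, a gap of 0.908 of the range, with all values below 1 FPKM. Chance flags about 1 in 20 groups, and 5.95% of all tested genes had such a library in this group. No explanation was tested.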

How the results depend on the processing

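Effects below are log2 differences, CD34-positive minus CD34-negative. The signs of Itga2b, Itgb3, Gp1ba, Gp5 and Vwf held in every setting run. With the replicate block by description number, 0 genes passed over all genes in either direction, Gp9 turned to -0.0089, and no call of the 10 genes changed. The block by title number gave 0 passing genes too. Without a filter 2 genes passed as higher. Plek turned to -0.077 with quantile normalization, and Gp9 to -0.056 with the mean of CD34-negative 4 and 4a as 1 sample. Without the libraries numbered 4 and 4a, a choice made after seeing the data, Gp9 was -0.029 and Rab27b 0.062. Leaving out 1 library at a time, genes passing as higher numbered 0 to 7 and as lower 0 to 3 for the 2 groups alone, the 7 and 3 without CD34-negative library 3. With the block, higher and lower genes numbered 230 and 81 without CD34-positive 3, 231 and 81 without CD34-negative 3, 32 and 125 without CD34-negative 4, 1 and 0 without CD34-positive 4, and 0 and 0 otherwise. In these block fits, leaving out either library 3 made the same comparison, and so did leaving out either library 2. Left out in turn without and with the block, Itga2b ran from 0.17 to 0.68 and from 0.13 to 0.33, Itgb3 from 0.53 to 1.12 and from 0.60 to 1.12, Gp1bb from -0.12 to 0.41 and from -0.033 to 0.32, Gp9 from -0.22 to 0.55 and from -0.24 to 0.24, Pf4 from -0.97 to 0.28 and from -0.77 to -0.46, Plek from -0.20 to 0.39 and from 0.033 to 0.40, and Rab27b from -1.07 to 0.051 and from -0.69 to 0.062. Gp5 ran from -1.94 to -1.25 and from -2.16 to -1.31. The cause was not tested. With pseudocount 0.1 Gp5 was -2.49 and Vwf -1.82, and neither passed. The filter of 5 FPKM removed Gp5. Depth is unknown, so the values near or under 1 FPKM of Gp5, Gp1bb and Vwf have no counting error.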

Other observations

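Outside the rule for named genes, and chosen after its values were seen, Mitf was the tested gene nearest to Rab27b in centred profile (distance 0.18). Mitf, a transcription factor of mast cells and pigment cells, stood at 2.40, 4.63 and 8.09 FPKM in CD34-positive libraries 2, 3 and 4, against 2.27, 5.61, 25.3 and 7.61 FPKM in CD34-negative libraries 2, 3, 4 and 4a. As for Rab27b, CD34-negative library 4 held several times more than any other library.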
